A study of Mus musculus with 23 samples.

Results

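The regions described here were sites bound by p65 in unstimulated macrophages that lack the corepressor NCoR, not listed as bound in unstimulated wild type macrophages, and located where p65 was bound after stimulation. They were chosen by the presence or absence of peaks in the deposited lists. A peak of the untreated knockout list was kept when it shared no base with any peak of the untreated wild type list and at least 1 base with a peak of the knockout or the wild type list made after stimulation. Of the 2227 untreated knockout peaks, 939 (42.2%) met this rule. Another 1004 were found in the knockout only and lay at no stimulated peak, 246 had an untreated wild type peak and lay at a stimulated peak, and 38 had an untreated wild type peak but no stimulated one. The untreated peak heights and the listing itself chose the sites, so they are given as a description.

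The study profiled NCoR knockout and wild type macrophages with chromatin immunoprecipitation followed by sequencing (ChIP-seq), nascent RNA sequencing and histone mark profiling, in 23 samples, of which 4 p65 peak lists and 1 LXRβ peak list are used here. Knockout cells came from C57BL/6 NCoR fl/fl mice with Lys M-Cre +/-, and wild type cells from NCoR fl/fl mice with Lys M-Cre -/-, so the floxed alleles were present in all cells. Lys M-Cre is active in myeloid cells, and deletion is limited to cells in which the recombinase acted. The cells were peritoneal macrophages of male mice aged 6 to 8 weeks, taken by lavage 3 to 4 days after 2.5 ml thioglycollate and kept overnight in 0.5% serum, with or without 100 ng/ml Kdo2-Lipid A (KLA) for 1 h. The LXRβ list came from the RAW264.7 mouse macrophage line carrying tagged LXRβ and treated with 1 µM of the LXR agonist GW3965 for 2 h. The p65 antibody was Santa Cruz sc-372, and the number of animals behind a library is not given in the labels. Each group had 1 library, so no comparison below has a replicate check or a test. Peak lists hold no expression value for Ncor1, and the knockout was not checked here.

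p65 (RelA) is the transactivating subunit of the main NF-κB dimer of macrophages. In resting cells it is held in the cytoplasm by inhibitor proteins, and KLA, a purified lipopolysaccharide that signals through Toll-like receptor 4, releases it to the nucleus, where it binds promoters and enhancers of inflammatory genes. NCoR is a corepressor that recruits histone deacetylase complexes to promoters and enhancers, where it can be tethered by unliganded nuclear receptors and other factors. Liver X receptors (LXRα and LXRβ) are oxysterol-activated nuclear receptors that induce cholesterol export genes and also dampen inflammatory genes in macrophages.

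The stimulated libraries held 1673506 tags in the knockout and 2120392 tags in the wild type. The untreated libraries were shallower, with 786121 tags in the knockout and 777228 tags in the wild type. Heights are tags at the peak scaled by the authors to 10000000 tags, so 1 tag equals 5.98 in the stimulated knockout, 4.72 in the stimulated wild type, 12.7 in the untreated knockout and 12.9 in the untreated wild type. Both untreated lists required 5 tags, which sets the lowest listed height at 63.6 in the knockout and 64.3 in the wild type. A peak also needed a 4-fold excess over the surrounding 10000 bp and, in the 3 p65 lists made with an input, a 4-fold excess over input, which per the file headers was a wild type library also for the knockout. Absence from a list therefore means that a site failed at least 1 of the limits of the peak caller or was listed at a shifted position, which is not the same as no binding. The stimulated lists reached down to 29.9 in the knockout, with 22585 peaks, and to 18.9 in the wild type, with 30021 peaks. The stimulated wild type list was made without an input library, and its height floor differed from that of the other lists. Sites are named by their mm9 coordinates, and gene annotation was not used here.

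Most of the 939 sites were small peaks. Their untreated knockout height had a median of 76.3 (quartiles 63.6 and 89.0), which is 6 tags, and 444 of them (47.3%) stood at the 5-tag threshold. A further 228 had 6 tags, so 672 (71.6%) had 5 or 6 tags. Only 60 sites (6.39%) had 10 tags or more, and 11 had 20 or more. Among the 246 peaks that the untreated wild type list shared, the median height was 114.5, 33.3% had 5 or 6 tags and 44.7% had 10 or more. The 1004 knockout-only peaks away from stimulated sites also had a median of 76.3, but 122 of them (12.2%, exact 95% interval 10.2% to 14.3%) had 10 tags or more, against an interval of 4.91% to 8.15% for the 939.

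**Figure D1:**
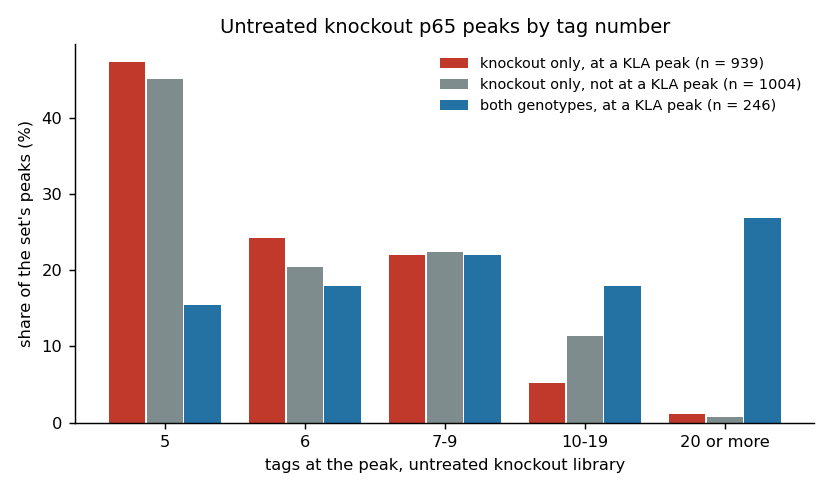
Share of untreated knockout p65 peaks (%) by the number of tags at the peak, for the 939 knockout-only peaks at a stimulated peak, the 1004 knockout-only peaks not at one and the 246 peaks shared with the untreated wild type at a stimulated peak. In both knockout-only sets the tallest bar is at 5 tags, while 26.8% of the shared peaks had 20 tags or more.

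Counting error at this depth is wide. A peak of 5 tags has a height of 63.6 with an exact 95% Poisson interval of 20.7 to 148, and a peak of 6 tags has 76.3 with an interval of 28.0 to 166. For 48 of the 939 sites (5.11%), those with 11 tags or more, the lower bound stayed at 5 tags or above when carried to the wild type depth. With the narrower wild type peak width taken into account as well, 32 sites (3.41%) remained. The tags of the untreated wild type library at the sites were not used here, so the size of a difference between the genotypes in the untreated state was not measured. The 48 include the tallest site, which had an untreated wild type peak centred 170 bp away. These intervals cover counting error only. Together the 939 sites held 6144 tags, which is 0.782% of the untreated knockout library and 35.2% of its tags in listed peaks.

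At the edge of the rule, the site with the smallest overlap with a stimulated peak shared 2 bases with it (chr10:127069071-127069197, height 76.3). Just outside, 2 knockout-only peaks missed a stimulated peak by 7 bases, among them chr11:79092061-79092187 at 76.3. On the other criterion, the site nearest to an untreated wild type peak was separated from it by 14 bases (chr10:66461711-66461837, 63.6), and the left-out peak with the least contact overlapped one by 4 bases (chr17:46090642-46090768, 63.6). Few sites were so close to either limit. The median overlap with a stimulated peak was 110 bp, 814 sites (86.7%) shared at least 63 bp, and 24 shared fewer than 20 bp. An untreated wild type peak was centred within 500 bp at 12 sites (1.28%, exact 95% interval 0.662% to 2.22%) and within 10 kb at 42 (4.47%), and the median distance to one was 823611 bp.

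The tallest site was chr17:4626283-4626409. It had a height of 203.2 after KLA in the knockout, 84.9 after KLA in the wild type and 1743 in the untreated knockout, and an untreated wild type peak of 257.3 was centred 170 bp away. This site was thus occupied in the untreated wild type next to the listed position, and its height was lower after KLA than before in the knockout. The next was chr5:147072597-147072723, with no peak after KLA in the knockout, 51.9 after KLA in the wild type and 559.7 in the untreated knockout. It held 2.6 scaled input tags, the most of the sites named here, while its nearest peak in the stimulated knockout list was 387716 bp away. The third tallest, chr10:36983525-36983651, had no peak after KLA in the knockout, 23.6 after KLA in the wild type, 521.5 in the untreated knockout and an LXRβ peak of 10.9. The fourth, chr3:5860662-5860788, had no peak after KLA in the knockout, 56.6 after KLA in the wild type, 343.5 in the untreated knockout and 1.7 scaled input tags. The fifth, chr8:3754376-3754502, had no peak after KLA in the knockout, 33.0 after KLA in the wild type and 292.6 in the untreated knockout, with an LXRβ peak of 29.1. Of the 5 tallest sites, 4 were therefore absent from the stimulated list of their own genotype.

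Of the 11 sites with 20 tags or more, 6 were absent from the stimulated knockout list, against 238 of all 939 (25.3%). Only 3 of the 11 were in both stimulated lists, against 582 of all 939. The 5 that were listed after KLA in the knockout were all lower there than before KLA, with a median ratio of 0.128 of stimulated to untreated height. The same held for the 66 shared peaks with 20 tags or more. All 61 of them listed after KLA in the knockout were lower there, with a median ratio of 0.178. Values of peak shape are given for these 11 as a description, since they follow the number of tags at the peak. The share of tags on the expected side of the peak centre (the focus ratio given by the peak caller) had a median of 0.952 in these 11, against 0.833 in the 444 sites with 5 tags. The authors' fold over the surrounding 10000 bp had a median of 451 in the 11 and 52.2 in the 444. In the 66 shared peaks the median focus ratio was 0.938 and the median fold 455, so these values were not particular to the 11.

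After KLA, 582 of the 939 sites (62.0%, exact 95% interval 58.8% to 65.1%) were listed in both genotypes, 119 (12.7%) in the knockout only and 238 (25.3%) in the wild type only. In all, 701 sites (74.7%) had a stimulated knockout peak and 820 (87.3%) a stimulated wild type peak. Of these 820, 582 (71.0%) were also listed in the stimulated knockout. Over the whole stimulated wild type list, 16203 of 30021 peaks were also listed there, which is a lower share. The 820 sites were taller in the stimulated wild type list, with a median height of 56.6 against 42.4 over all its peaks. The part of height in the difference was not tested. The share listed in both genotypes was 80.5% (75.0% to 85.2%) for the 246 untreated peaks shared with the wild type. It was 78.9% for the 327 untreated wild type peaks that lay at a stimulated peak and had no knockout counterpart. The interval of the knockout-only sites for listing in both genotypes (58.8% to 65.1%) lay below that of the shared peaks, which were taller after KLA.

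Sites listed after KLA in 1 genotype were lower than those listed in both, and somewhat below the median of their list. The 119 sites listed in the stimulated knockout only had a median stimulated height of 47.8. The median was 74.7 at the sites listed in both and 53.8 over the whole list. Of the 119, 33 had 5 or 6 tags, and a stimulated wild type peak was centred within 500 bp of 36. The 238 listed in the stimulated wild type only had a median of 37.7, against 70.7 at the sites listed in both and 42.4 over the whole list. Of the 238, 72 were below 29.9, the lowest height of the stimulated knockout list. The lowest 3 of 10 height classes of the whole stimulated wild type list were also below 29.9. A stimulated knockout peak was centred within 500 bp of 43 of the 238. The tallest of the 119 were chosen after their values were seen. At chr15:33976293-33976419 p65 reached 262.9 after KLA in the knockout and 63.6 in the untreated knockout, with a stimulated wild type peak centred 134 bp away. At chr4:132148976-132149102 it reached 197.2 after KLA in the knockout and 139.9 in the untreated knockout, with a wild type peak 130 bp away. At chr19:6943956-6944082 it reached 149.4 after KLA in the knockout and 101.8 in the untreated knockout, with a wild type peak 198 bp away. For these 3 the wild type had a stimulated peak beside the site.

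In the stimulated knockout the 701 listed sites had a median height of 65.7 (quartiles 47.8 and 113.5). The ratio of stimulated to untreated height in the knockout had a median of 0.940 (quartiles 0.626 and 1.50). At 98 sites (14.0%) the stimulated height was at least 2-fold above the untreated one, against 16.7% of all 922 untreated knockout peaks listed after KLA in the knockout. At 86 sites (12.3%) it was 0.5 of the untreated height or less, against 17.1% of the same 922. The rule used both lists, so nothing is read from these shares. The value depends on the scale. With tags scaled to the tags in listed peaks, which made up 17.7% of the stimulated and 2.37% of the untreated knockout library, the median ratio was 0.126.

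The median ratio is given by untreated tag number as a description, since the untreated height that chose the sites is its denominator and a lower ratio at more tags follows from that. It was 1.03 at sites with 5 untreated tags (n = 319), 1.02 with 6 (n = 177), 0.721 with 7 to 9 (n = 158) and 0.429 with 10 to 19 (n = 42). At the shared peaks it was 1.50 with 5 tags (n = 36), 1.80 with 6 (n = 41), 1.88 with 7 to 9 (n = 48) and 0.689 with 10 to 19 (n = 35). With 20 tags or more it was 0.128 at the sites (n = 5) and 0.178 at the shared peaks (n = 61). The shared peaks had to pass the untreated wild type threshold as well, so no difference between the sets is read from these ratios. Over the 701 sites, stimulated and untreated knockout heights had a Spearman rho of 0.0556, and over the 820 sites stimulated wild type and untreated knockout heights had a rho of 0.0533. The untreated heights were nearly tied, with 71.6% of the sites at 5 or 6 tags, so these coefficients say little about a relation. Stimulated knockout and stimulated wild type heights had a rho of 0.812 over 582 sites.

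**Figure D2:**
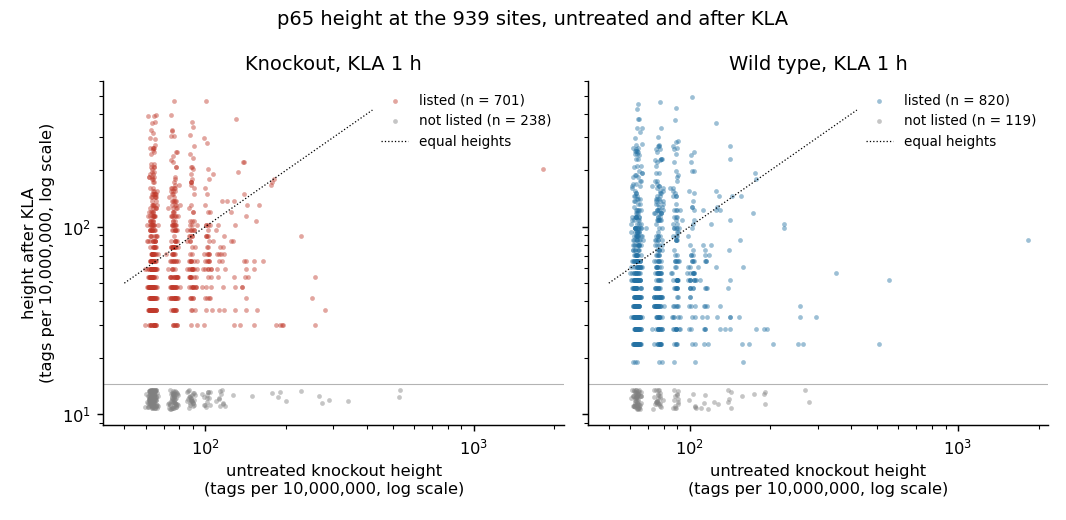
Height after KLA against untreated knockout height (tags per 10000000, log scales) for the 939 sites, in the knockout on the left and the wild type on the right, with small random shifts along the x axis so that equal tag numbers can be seen. Grey points under the line are the 238 sites not listed in the stimulated knockout and the 119 not listed in the stimulated wild type, and the dotted line marks equal heights. The columns of points are sites with 5, 6 or 7 tags, and the site at 1743 lies far below the dotted line in both panels.

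The sites tallest after KLA in the knockout were low before it, as were most of the 939 sites. At chr1:133007508-133007634 p65 stood at 472.1 after KLA in the knockout, 495.2 after KLA in the wild type and 101.8 in the untreated knockout, with an LXRβ peak of 10.0. At chr16:55838872-55838998 it stood at 472.1 in the stimulated knockout, 462.2 in the stimulated wild type and 76.3 in the untreated knockout. Both sites had nearly the same stimulated height in knockout and wild type. At chr14:26198453-26198579 it stood at 394.4 in the stimulated knockout, 334.8 in the stimulated wild type and 63.6 in the untreated knockout. At chr4:140122798-140122924 it stood at 394.4 in the stimulated knockout, 273.5 in the stimulated wild type and 76.3 in the untreated knockout, with an LXRβ peak of 11.8. At chr18:65535067-65535193 it stood at 388.4 in the stimulated knockout, 377.3 in the stimulated wild type and 63.6 in the untreated knockout. All 5 had between 5 and 8 tags before KLA, and none of these is among the 11 sites with 20 tags or more. Of all 939 sites, 71.6% had 5 or 6 tags and 1.17% had 20 or more, so no relation is read from these 5.

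Taller stimulated sites were more often occupied before KLA in the knockout. In the stimulated wild type list, ranked by height and cut into 10 height classes of equal size, the 939 sites covered 1.07% of the lowest class and 5.63% of the tallest (169 of 3003 peaks), against 2.73% of the whole list. Untreated wild type peaks without a knockout counterpart covered 0.233% of the lowest class and 5.13% of the tallest (154 of 3003), against 1.03% of the whole list. In the tallest class the intervals of these 2 shares overlapped. With shared peaks counted in both, untreated knockout peaks covered 9.36% of the tallest class and untreated wild type peaks 8.86%. The untreated knockout list is itself the longer one, with 2227 peaks against 702 in the untreated wild type list. The stimulated knockout list gave 1.11% in its lowest class and 5.84% in its tallest. The sites took 65 of its 1000 tallest peaks (6.50%) and 67 of the 1000 tallest of the stimulated wild type list (6.70%).

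**Figure D3:**
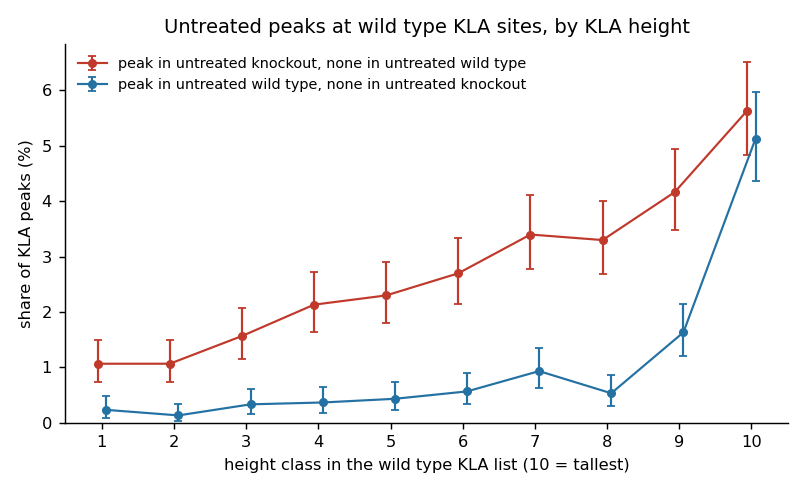
Share of stimulated wild type p65 peaks (%) that overlap a knockout-only untreated site or a wild type-only untreated peak, by class of stimulated height (10 classes of equal size), with exact 95% intervals for counting error. The knockout-only share is 1.07% in the lowest class and 5.63% in the tallest, and the wild type-only share is 0.233% in the lowest class and 5.13% in the tallest.

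The 820 sites with a stimulated wild type peak had a median height of 56.6 there (quartiles 37.7 and 99.0), at the 68.2nd percentile of that list. In the stimulated knockout list the median site stood at the 64.5th percentile. The peaks shared with the untreated wild type were taller, with medians of 113.5 after KLA in the knockout and 117.9 after KLA in the wild type, at percentiles 86.3 and 90.5 of those lists. Untreated wild type peaks without a knockout counterpart were also taller, with 119.5 in the stimulated knockout and 113.2 in the stimulated wild type. Knockout-only sites thus lay between the middle of the stimulated lists and the sites that the untreated wild type list held. The untreated wild type peaks of that last set were themselves low, with a median height of 64.3, and in the wild type their ratio of stimulated to untreated height had a median of 1.53 (quartiles 0.800 and 2.49, n = 309).

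Stimulated height was close to equal in knockout and wild type at these sites. Over the 582 sites listed in both, the ratio of knockout to wild type stimulated height had a median of 1.06 (95% interval of the median over sites 1.02 to 1.10, quartiles 0.845 and 1.27). The median was 1.09 over all 16203 stimulated sites listed in both genotypes and 1.08 over the shared untreated peaks. The knockout was at least 2-fold above the wild type at 30 of the 582 sites (5.15%), against 6.28% of all 16203. It was 0.5 of the wild type or less at 13 (2.23%), against 2.43%. Both shares were near those of all stimulated sites. With at least 20 tags in both libraries the median ratio was 1.02 at 143 of these sites and 1.02 at all 2511 stimulated sites with such counts. Per base of peak width, which was 144 bp in the stimulated knockout and 132 bp in the stimulated wild type, the median of the 582 sites was 0.968, so its direction depended on that choice.

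**Figure D4:**
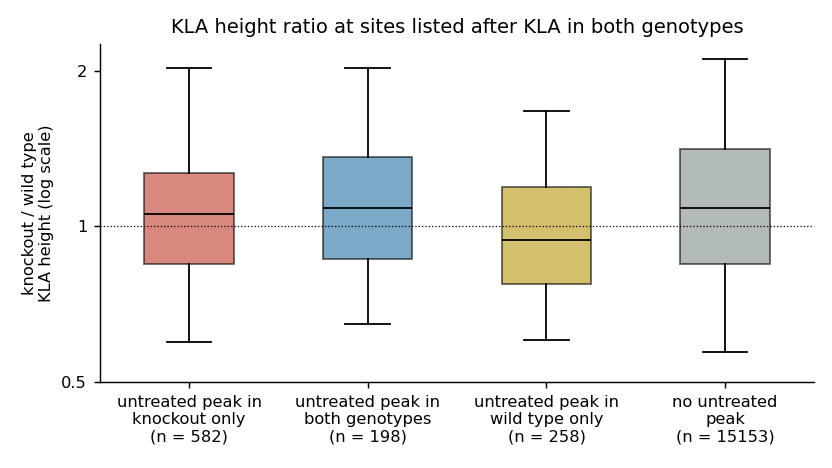
Ratio of knockout to wild type p65 height after KLA (log scale) at sites listed after KLA in both genotypes, grouped by their untreated peaks. Boxes show the quartiles and the median, whiskers reach the 5th and 95th percentile over sites. The median is 1.06 at the 582 knockout-only sites, 1.08 at the 198 shared sites, 0.943 at the 258 wild type-only sites and 1.09 at the 15153 sites with no untreated peak.

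Untreated wild type peaks without a knockout counterpart had a median ratio of 0.943 (0.898 to 0.995, n = 258), below that of the knockout-only sites. These peaks were also taller, with a median of 113.2 in the stimulated wild type against 56.6. With at least 20 tags in both libraries their median ratio was 0.947 (0.917 to 1.00, n = 133). At the knockout-only sites of that depth it was 1.02 (0.964 to 1.05, n = 143), and these intervals overlapped. The highest ratio at that depth, 1.87, was at chr4:32338232-32338358, with 185.2 in the stimulated knockout and 99.0 in the stimulated wild type. Next were chr9:108528844-108528970, with 161.3 in the stimulated knockout and 99.0 in the stimulated wild type (1.63), and chr16:91415630-91415756, with 215.1 in the stimulated knockout and 132.1 in the stimulated wild type (1.63). These 3 sites had 27 to 36 tags in the stimulated knockout. The lowest ratio, 0.591, was at chr2:19548836-19548962, with 125.5 in the stimulated knockout and 212.2 in the stimulated wild type. It was followed by chr10:8590317-8590443, with 119.5 in the stimulated knockout and 193.4 in the stimulated wild type (0.618), and by chr2:145566673-145566799, with 209.1 in the stimulated knockout and 334.8 in the stimulated wild type (0.625). Among the 143 sites of this depth, none reached a 2-fold difference in either direction. All 6 had 5 or 6 tags in the untreated knockout.

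LXRβ peaks were more frequent at these sites than at stimulated p65 sites without an untreated peak. The rule did not use the LXRβ list, which came from another cell type, another genotype and an agonist treatment. An LXRβ peak overlapped 111 of the 939 sites (11.8%, exact 95% interval 9.83% to 14.1%), against 39 of the 1004 knockout-only peaks not at a stimulated peak (3.88%, 2.78% to 5.27%). The share was 18.7% (14.0% to 24.1%) at the 246 shared peaks and 13.1% (9.68% to 17.3%) at the 327 wild type-only peaks. The interval of the 939 sites overlapped that of the wild type-only peaks and lay above that of the sites away from stimulated peaks. It met the interval of the shared peaks only at its end (14.06% against 14.03%), so the share of the 939 sites was the lower one there. The 111 sites took 4.05% of the 2743 LXRβ peaks.

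The difference was also present among stimulated peaks of similar height. Of the stimulated wild type peaks with a knockout-only site, 13.5% had an LXRβ peak (111 of 820), against 3.37% of those with no untreated peak (967 of 28671). These are counts of stimulated peaks that overlap an LXRβ peak, so the 111 are not the 111 sites above. Of those sites, 8 were listed in the stimulated knockout only. With the list cut into 4 classes of equal size by stimulated height, the shares in the lowest class were 7.79% with a knockout-only site and 1.88% with no untreated peak. With a knockout-only site against no untreated peak, they were 10.8% against 2.65% in the second class, 12.7% against 3.51% in the third and 16.8% against 5.63% in the tallest. In all 4 classes the exact 95% intervals of the 2 shares did not overlap. Stimulated wild type peaks with an untreated wild type peak had a share of 16.0% (85 of 532), and their intervals overlapped those of the knockout-only sites in each class. How far peaks of any factor coincide at these positions was not tested.

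**Figure D5:**
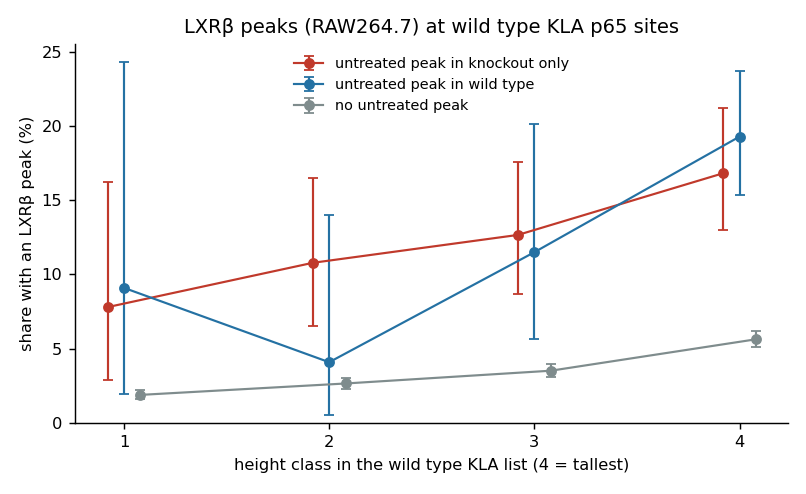
Share of stimulated wild type p65 peaks (%) that overlap an LXRβ peak of RAW264.7 cells, by class of stimulated height (4 classes of equal size), with exact 95% intervals for counting error. In each class the share at knockout-only sites, 7.79% in the lowest and 16.8% in the tallest, is above that of peaks with no untreated peak, 1.88% in the lowest and 5.63% in the tallest.

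LXRβ peaks at the sites were of ordinary height for their list, with a median of 10.9 at the 111 sites and 10.9 over all 2743 LXRβ peaks. The highest, 35.5, was found at 2 sites. At chr10:19411701-19411827 p65 had a height of 71.7 after KLA in the knockout, 47.2 after KLA in the wild type and 89.0 in the untreated knockout. The other is chr3:5860662-5860788, the fourth tallest untreated site, which held input tags. The third, chr4:141033689-141033815, had an LXRβ height of 33.7 and p65 heights of 101.6 after KLA in the knockout, 122.6 after KLA in the wild type and 127.2 in the untreated knockout. All 3 were lower in each stimulated list that held them than in the untreated knockout. At chr10:19411701-19411827 and chr4:141033689-141033815 the Poisson intervals of the stimulated and untreated heights overlapped. The median ratio of stimulated to untreated knockout height was itself 0.940 over the 701 sites, so nothing is read from these 3. By untreated tag number, the LXRβ share of the sites was 9.46% at 5 tags (6.90% to 12.6%) and 11.4% at 6 (7.59% to 16.3%). At 7 to 9 tags it was 15.0% (10.4% to 20.6%). It was 18.4% at 10 to 19 (9 of 49, 8.76% to 32.0%) and 27.3% at 20 or more (3 of 11, 6.02% to 61.0%). In the same tag classes the shared peaks had 21.1%, 27.3%, 25.9%, 9.09% and 12.1%. The exact 95% intervals of the classes overlapped within each set, so no trend with tag number is read from these shares. The LXRβ share was 13.2% at the sites listed after KLA in both genotypes, 6.72% at those listed in the stimulated knockout only and 10.9% at those listed in the stimulated wild type only.

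Few sites held input tags, but the untreated knockout list was itself filtered on input. At least 1 scaled input tag was recorded at 4 of the sites (0.426%, 0.116% to 1.09%), against 28 of the 246 shared peaks (11.4%). A 4-fold excess over input leaves little room for input tags at a peak of 5 or 6 tags. None of the sites or shared peaks with 5 or 6 tags held 1. The shared peaks had more tags, so nothing is read from this difference. The 4 sites with input tags had no peak in the stimulated knockout list, which was filtered on input. They were listed after KLA in the wild type, whose list was made without input. The fold over the surrounding 10000 bp had a median of 58.8 at the 939 sites (quartiles 39.2 and 94.0), 107 at the knockout-only peaks away from stimulated sites and 65.3 at the shared peaks.

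Most sites lay near other stimulated p65 peaks, as stimulated peaks did in general. Another stimulated wild type peak lay within 50 kb of 871 of them (92.8%), against 70.9% of the 1004 knockout-only peaks away from stimulated sites. Those 1004 were chosen as lying at no stimulated peak, so nothing is read from that difference. Among stimulated wild type peaks, the share with another within 50 kb was 94.3% at the sites and 91.1% at peaks with no untreated peak. The stimulated wild type peaks at the sites had a median of 5 further peaks within 50 kb, and those with no untreated peak had 4. Another of the 939 sites lay within 100 kb of 247 of them (26.3%, 23.5% to 29.2%). For the 1004 peaks away from stimulated sites, another of their own set lay within that distance of 159 (15.8%, 13.6% to 18.2%). These intervals take the sites as independent, but nearness is mutual, so they are too narrow and no difference is read from them. The density of stimulated peaks around the sites moves with the share that has a neighbour, and its part was not tested.

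On a grid of 100 kb windows, the sites fell into 787 windows with 1 site, 73 with 2 and 2 with 3. The window of chromosome 19 from 32300001 to 32400000 held 3 of the sites, 13 stimulated knockout peaks, 16 stimulated wild type peaks, 1 LXRβ peak and no untreated wild type peak. Its tallest site after KLA, chr19:32384023-32384149, had 328.7 after KLA in the knockout, 207.5 after KLA in the wild type and 63.6 in the untreated knockout. Its neighbour chr19:32385713-32385839 had 119.5 in the stimulated knockout, 113.2 in the stimulated wild type and 89.0 in the untreated knockout. The other site of the window, chr19:32351383-32351509, had 59.8 in the stimulated knockout, 56.6 in the stimulated wild type, 63.6 in the untreated knockout and an LXRβ peak. All 3 were at or near the listing threshold before KLA and differed widely after it.

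The window of chromosome 4 from 144800001 to 144900000 held 3 sites, 13 stimulated peaks in each genotype and no untreated wild type or LXRβ peak. At chr4:144844409-144844535 the height was 328.7 after KLA in the knockout, 301.8 after KLA in the wild type and 76.3 in the untreated knockout. At chr4:144866535-144866661 it was 191.2 in the stimulated knockout, 150.9 in the stimulated wild type and 101.8 in the untreated knockout. At chr4:144831012-144831138 it was 53.8 in the stimulated knockout, 75.5 in the stimulated wild type and 63.6 in the untreated knockout, the one site of the 3 that was lower after KLA in the knockout. By chromosome, the sites were most numerous on chromosome 2, with 86 (9.16%), where 8.43% of stimulated knockout and 8.49% of stimulated wild type peaks lay. The X chromosome held 6 sites (0.639%), against 3.49% of the knockout-only peaks away from stimulated sites, 1.60% of stimulated knockout peaks and 1.76% of stimulated wild type peaks.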

How the data were processed

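Peak lists were used as deposited by the authors. Per the submitters' processing notes, reads were handled with Bowtie 0.12.7, HOMER and the mm9 build. The HOMER version is not given in the sources used here. Per the file headers, peaks had a fixed width per list (126 bp for untreated knockout), a stated threshold of 5 tags in the p65 lists at a false discovery rate of 0.001 (the lowest heights of the stimulated wild type list correspond to 4 tags), at least a 4-fold excess over the surrounding 10000 bp and, except in the stimulated wild type list, at least a 4-fold excess over a wild type input. Per the file headers, the height is a signal, the tag count normalized to 10000000 tags. The deposited focus ratio is a fraction, the scaled input tags a signal, the peak score a number of tags, and the fold over local background a ratio. The header assumes a genome of 2000000000 bp for the stimulated wild type list and 4000000000 bp for the other p65 lists.

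Overlaps (1 bp, closed intervals) were computed with Python 3.11.15, numpy 2.4.6 and pandas 2.3.3, and the overlap code was tested on simulated data and against bedtools 2.31.1. Where several peaks overlapped a site, the nearest centre gave the height. Shares have Clopper-Pearson and heights Poisson 95% intervals (scipy 1.17.1), for counting error only. Named sites are the 5 tallest untreated, the 5 tallest in the stimulated knockout, the 3 with the tallest LXRβ peak, the 3 highest and 3 lowest genotype ratios with 20 tags or more, and the windows with most sites, plus those said to be chosen afterwards. Only 2 windows had 3 sites, and the third place was tied. The sites and lists were chosen with earlier results of these data known. Motif and gene-list steps were not run. The nascent RNA and histone libraries were not analysed here.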

Additional observations from a re-analysis of the deposited data

How the results depend on the processing

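Of 94 values recomputed under other settings, 71 stayed within 1.5 times (counts) or within the 95% interval of the main value. The number of sites stayed between 701 and 938 except with a minimum of 7 tags, which left 267 sites; there the stimulated to untreated ratio was 0.672, the LXRβ share 16.1%, the share with an untreated wild type peak within 500 bp 2.25%, the share with another site within 100 kb 7.87% and the share with input tags 1.50%. With a reciprocal overlap of 50%, 50.1% of sites were in both stimulated lists, 9.57% had an LXRβ peak, 4.05% an untreated wild type peak within 500 bp and 21.2% another site within 100 kb. With the stimulated wild type list alone, 71.0% were in both lists, the stimulated to untreated ratio was 0.986 and 23.0% had another site within 100 kb. With the stimulated knockout list alone, these were 83.0% in both lists and 22.0% with another site, the wild type percentile was 77.2 and 0% had input tags. With both stimulated lists held to 29.9 or more, the percentile was 62.6. Dropping sites near an untreated wild type peak, or with input tags, set those shares to 0% by construction. Per base of peak width the stimulated to untreated ratio was 0.822 and the knockout to wild type ratio turned to 0.968. Scaled to tags in peaks, the stimulated to untreated ratio was 0.126. The LXRβ share of stimulated wild type peaks was 8.98% to 17.7% with a site, against 2.22% to 4.12% with no untreated peak, over all settings. Apart from settings that change which sites are counted or the unit itself, the cause was not tested. No paired analysis was possible because each group has 1 library. Motif counts were not run.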
